A study of Mus musculus with 25 samples.

Results

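The genes followed here are 8 markers of neural progenitors and neurons, *Sox1*, *Pax6*, *Nes*, *Tubb3*, *Map2*, *Sox11*, *Sox4* and *Ncam1*, chosen by name and read from a table of 48440 genes in mouse embryonic stem (ES) cells. The choice was made with earlier results of these data known, so that counts of these genes beside shares of all genes are descriptive only. All 8 were found by their Ensembl identifiers. RNA came from E14IVtg2a, a mouse ES cell line kept without feeder cells on gelatin in serum medium with leukemia inhibitory factor. In 10 libraries the cells were unedited and had been given CHIR99021, an inhibitor of the kinase GSK3β that stabilises β-catenin, for 48 h at 0, 2.5, 5, 7.5 or 10 µM, with 2 libraries per dose. The other 15 libraries came from 15 clones without inhibitor, 1 library per clone, each heterozygous for 1 of 11 missense mutations of *Ctnnb1*, the gene of β-catenin. The study placed the mutations in a low, a medium and a high category by their effect on a signaling reporter in another cell line, and its grouping of the clones also used the transcriptomes analysed here. Tests between categories are thus not independent of the grouping, and their p-values may be too small. The low category held S45C (clone D3), T41N (clone D3) and T41S (clone H8), and the medium category S45P (clone G5) and S45F (C1, D9). The high category held S37A (A10), S37C (G12), S37F (H2 and G1), S37Y (A5), T41A (C1 and E6) and T41I (B9 and A6). Every clone had passed through a selection cassette and a repair donor, which the unedited cells had not, so that editing history and mutation cannot be told apart in a comparison of clones with unedited cells. A category is a set of mutations, 7 of the 11 of which were read in a single clone, and nothing states that the 2 libraries of a dose were separate cultures. P-values therefore measure the spread between these libraries. Where all libraries of a group lay above or below those of another, the share of all genes that did so was not counted.

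As background, ES cells leave pluripotency for the neural lineage when pluripotency factors fall, and SOX1 and PAX6 are transcription factors that mark the first neuroectoderm and its progenitors. Nestin (*Nes*) is an intermediate filament protein of neural progenitors, and *Sox4* and *Sox11* encode SoxC factors, which act in progenitors and in young neurons and are also expressed outside the nervous system. *Tubb3* encodes the βIII-tubulin of neurons, *Map2* a protein that binds microtubules in dendrites, and *Ncam1* the neural cell adhesion molecule. Wnt signaling through β-catenin is known to act against neural differentiation of ES cells and to help maintain self-renewal.

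The libraries were sequenced with mcSCRB-seq, a bulk method that reads transcript 3′ ends and counts molecules by unique molecular identifiers (UMIs). They held 306157 to 2083398 counts, and levels are given in CPM, counts scaled to a common library total. The level that a count of 0 allows (3 counts) lay between 1.44 and 9.80 CPM, and intervals and limits of this kind cover counting error only. Of the unedited libraries, 4 stood apart by a mitochondrial share of 0.485 to 0.562% of counts, against 0.986 to 1.46% in the other 6 and 1.53 to 2.52% in the clones. One of these 4 was an untreated library (replicate 2), and the smallest library was replicate 1 at 10 µM. Pluripotency genes were detected in all libraries. The summed level of *Pou5f1*, *Nanog*, *Zfp42*, *Klf4*, *Esrrb*, *Tfcp2l1* and *Sox2* was 2086 to 2588 CPM in unedited cells, 1150 to 2078 CPM in low, 2966 to 3547 CPM in medium and 3656 to 4411 CPM in high clones. The genes of differentiated neurons or their precursors, *Dcx*, *Neurod4* and *Nhlh1*, had no count in any clone, whereas 15 of the 26 genes of the neuronal list described further on were abundant enough there to be tested. In bulk RNA, fewer cells that express a gene and less RNA of it per cell cannot be told apart.

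Positions are those of GENCODE M21 on GRCm38. *Sox1* (ENSMUSG00000096014.1) lies at chr8:12395295-12400126, *Pax6* (ENSMUSG00000027168.21) at chr2:105668900-105697364, *Nes* (ENSMUSG00000004891.16) at chr3:87971078-87980451, *Tubb3* (ENSMUSG00000062380.3) at chr8:123411424-123422015 and *Map2* (ENSMUSG00000015222.17) at chr1:66175273-66442583, all on the plus strand. *Sox11* (ENSMUSG00000063632.6) lies at chr12:27334264-27342574, *Sox4* (ENSMUSG00000076431.4) at chr13:28948919-28953713 and *Ncam1* (ENSMUSG00000039542.15) at chr9:49502136-49798925, on the minus strand. All are protein-coding. *Sox4*, a single-exon gene, overlaps the antisense noncoding RNA *Gm26735*, which had 701 counts over all libraries against 2733 for *Sox4*. Strandedness of the counting is not given in the sources used here, so that reads of this pair may not be separable. None of these chromosomes was shifted as a whole in a clone, the medians over their genes lying between -0.07 and 0.06 on the log2 scale relative to the median clone.

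Promoter sequence of the SoxC genes *Sox11* and *Sox4* is shown because their levels moved together across the clones. It comes from RefSeq's annotation of GRCm38.p6 and covers the 250 bases before the annotated start, 5′ to 3′ on the gene's strand. Capitals mark matches on either strand to a CCAAT box (CCAAT) or a GC box (GGGCGG), and these motifs do not overlap each other here. The *Sox11* window is chr12:27342719-27342968 (minus strand) and the *Sox4* window chr13:28953700-28953949 (minus strand).
Sox11: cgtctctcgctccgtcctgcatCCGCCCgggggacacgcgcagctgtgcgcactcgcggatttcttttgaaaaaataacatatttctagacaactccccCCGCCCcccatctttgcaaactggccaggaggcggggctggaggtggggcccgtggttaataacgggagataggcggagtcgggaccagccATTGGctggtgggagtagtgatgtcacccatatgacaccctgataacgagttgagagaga
Sox4: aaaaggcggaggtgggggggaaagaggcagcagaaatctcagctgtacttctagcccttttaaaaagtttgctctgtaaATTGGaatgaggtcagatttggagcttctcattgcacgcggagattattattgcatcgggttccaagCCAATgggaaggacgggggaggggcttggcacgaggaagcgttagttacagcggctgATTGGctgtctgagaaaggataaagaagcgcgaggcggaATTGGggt
The *Sox11* window had 1 CCAAT box and 2 GC boxes, and the *Sox4* window 4 CCAAT boxes and 0 GC boxes. A CCAAT box occurred in 33.9% and a GC box in 32.7% of all 32851 promoter windows of this length. Promoter windows were given for 7 of the 8 genes (8 windows, 2 of them of *Pax6*), and 5 of the 8 windows held each motif. The TCF/LEF letters CTTTGAT and their variants that end in TT, AA or TA, searched on both strands without regard to overlap with other motifs, occurred in 0 of the 8 windows and in 14.8% of all windows. This says only that these letters are not within the 250 bases.

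Across the CHIR99021 doses, *Pax6*, *Ncam1* and *Tubb3* fell, *Sox11* rose, and *Nes*, *Map2* and *Sox4* did not pass the test. The test was a linear trend with dose in edgeR's quasi-likelihood model of the 10 unedited libraries, with Benjamini-Hochberg adjustment over 10674 genes, of which 6.85% fell and 5.71% rose at an adjusted p under 0.05. Of the 8 genes, 7 entered the test (3 fell and 1 rose), and *Sox1* had too few counts. Log2 changes of a trend are given as fitted from 0 to 10 µM.

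*Pax6* was at 17.4 and 23.4 CPM in the untreated libraries, 32 and 22 counts. It was at 0 and 2.29 CPM at 2.5 µM, 3.29 and 1.92 CPM at 5 µM, 0 and 2.31 CPM at 7.5 µM, and 0 in both libraries at 10 µM. Every treated library thus lay below both untreated ones, already at the lowest dose. Summed over libraries, the level at 10 µM was at least 10.6-fold lower than without inhibitor, taking the limit of 3 counts over both libraries at 10 µM (1.84 CPM). The trend had an adjusted p of 4.6e-06, and its log2 change of -6.22 ± 0.85 (SE) is no measure of size because it depends on the treatment of zeros. *Sox1* was at 2.17 and 8.51 CPM without inhibitor, 4 and 8 counts. Its treated libraries held 5 counts in all, at 2.29 CPM in 1 library of 2.5 µM and 0.96 CPM in 1 of 5 µM, with 0 in the other 6. Against the limit of 3 counts over the 2 libraries, its summed level was at least 4.48-fold lower at 7.5 µM and at least 2.35-fold lower at 10 µM. Without the filter on low counts the *Sox1* trend was called (edgeR, adjusted p = 4.1e-04).

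*Ncam1* was at 39.7 and 33.0 CPM in untreated cells, 20.1 and 31.3 CPM at 2.5 µM, 14.8 and 15.8 CPM at 5 µM, 10.2 and 10.95 CPM at 7.5 µM, and 6.53 and 11.3 CPM (2 and 15 counts) at 10 µM. The mean fell at each step, the libraries of neighbouring doses overlapping only between 7.5 and 10 µM, and the fitted change was -2.17 ± 0.29 (SE; edgeR adjusted p = 3.5e-06), a 4.50-fold fall. *Tubb3* was at 37.0 and 31.9 CPM, then 27.3 and 17.5 CPM, 21.4 and 18.2 CPM, 13.8 and 18.4 CPM, and 9.80 and 10.5 CPM (3 and 14 counts) at 10 µM. All 8 treated libraries of both genes were below both untreated ones. The fitted change of *Tubb3* was -1.53 ± 0.28 (SE; edgeR adjusted p = 2.9e-04), a 2.90-fold fall.

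*Sox11* was at 65.8 and 56.4 CPM in untreated cells, 74.7 and 86.9 CPM at 2.5 µM, 79.0 and 114 CPM at 5 µM, 123 and 120.4 CPM at 7.5 µM, and 81.7 and 98.7 CPM at 10 µM. All 8 treated libraries were above both untreated ones, the highest levels being at 7.5 µM and those at 10 µM back in the range of the lower doses. The linear trend was 0.79 ± 0.19 (SE; edgeR adjusted p = 0.00545). It did not pass without replicate 1 at 0 µM (0.69, adjusted p = 0.0675). *Sox4*, also a SoxC gene, ranged from 82.8 to 130.0 CPM with means of 96.9, 84.7, 117, 114 and 85.5 CPM from 0 to 10 µM (trend 0.07 ± 0.18, adjusted p = 0.867). *Nes* stayed between 16.01 and 26.1 CPM (0.39 ± 0.27, adjusted p = 0.399). *Map2* ranged from 1.65 CPM (a single count) to 18.3 CPM (-0.28 ± 0.41, adjusted p = 0.729).

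With both untreated libraries left out, a setting added after the data were seen, 6 of the genes entered the fit. *Ncam1* still fell over 2.5 to 10 µM (-2.17 per 10 µM, edgeR adjusted p = 0.0153). *Tubb3* (-1.18 per 10 µM, adjusted p = 0.316) and *Sox11* (0.39 per 10 µM, adjusted p = 0.644) were not called, and *Pax6* had too few counts. With counts thinned to the smallest library, *Ncam1* (adjusted p = 0.0793) and *Sox11* (adjusted p = 0.328) were not called.

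**Figure D1:**
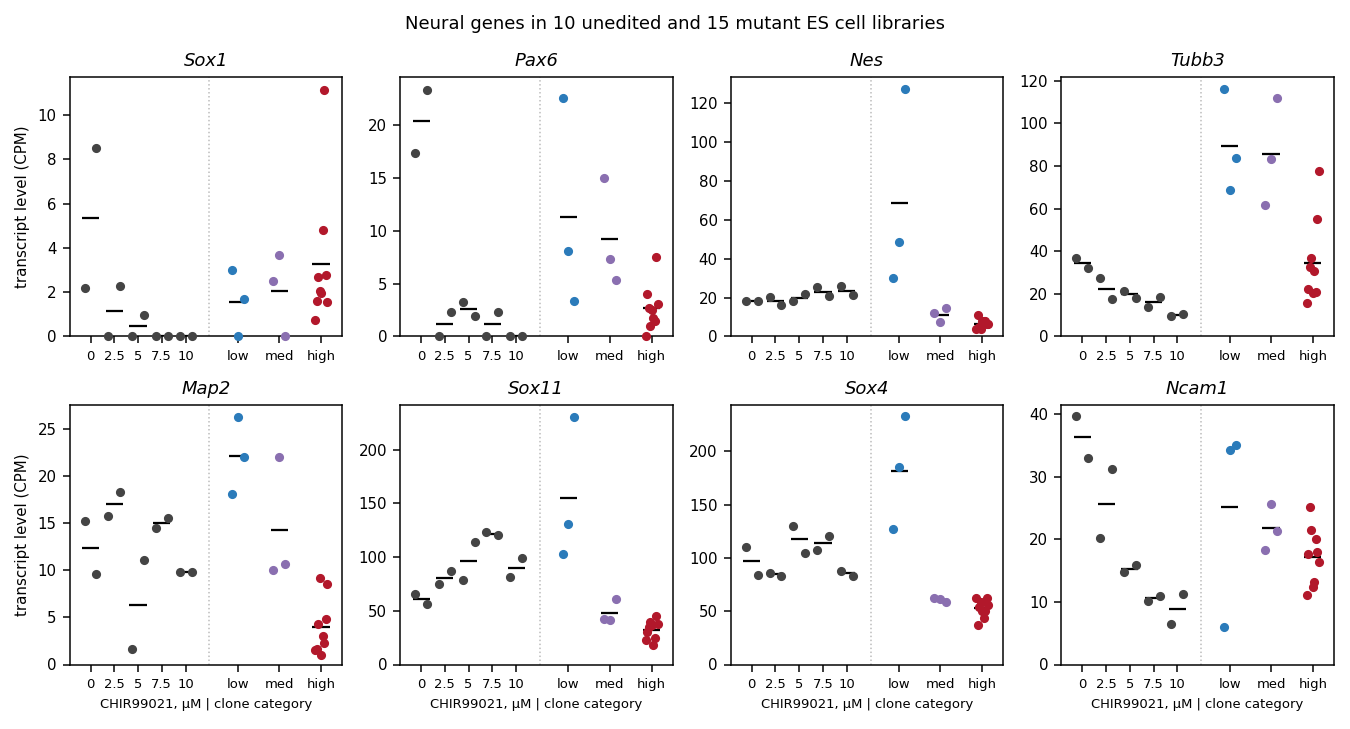
Level of each gene in CPM (vertical axis, from 0) in the 10 unedited libraries by CHIR99021 dose (grey, left of the dotted line) and in the 15 clones by category (low blue, medium purple, high red); points are libraries and horizontal lines group means. *Pax6* lies at 17.4 and 23.4 CPM without inhibitor and at or under 3.29 CPM in all treated libraries. Among the clones, *Nes*, *Sox11* and *Sox4* are highest in the 3 low clones. Some treated libraries exceed the low clone S45C, for *Sox11* (114 CPM at 5 µM, 123 and 120 CPM at 7.5 µM against 103 CPM) and *Sox4* (130 CPM at 5 µM against 127 CPM).

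Among the clones, *Nes*, *Sox11* and *Sox4* were far lower in the high than in the low category, and *Map2* and *Tubb3* were lower as well. The progenitor markers *Pax6* and *Sox1* did not share the pattern of the first 3. *Pax6* was at 3.39 CPM in T41S, the clone in which those 3 were highest. *Sox1* had a summed level of 1.71 CPM in low and 3.25 CPM in high clones. The model had category as a factor over all 15 clones, and 10452 genes were tested. Of these, 16.6% were lower and 13.1% higher in high than in low clones. Of the 8 genes, 7 were tested (*Sox1* was not), of which 6 were lower in high clones and 0 higher.

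*Nes* was at 30.2 CPM in S45C, 48.4 CPM in T41N and 127 CPM in T41S among the low clones, and at 11.9, 7.34 and 14.6 CPM in the medium clones S45F C1, S45F D9 and S45P. In the 9 high clones it ran from 3.72 to 11.2 CPM with a median of 6.21 CPM. No high or medium clone reached the lowest low clone. The difference between high and low clones was -3.46 ± 0.31 (log2, SE; edgeR adjusted p = 3.7e-08), a 10.96-fold lower level. It was -2.48 without the T41S clone (adjusted p = 3.3e-05). Medium clones were also below low clones (-2.77 ± 0.43, adjusted p = 2.9e-04; -1.79 and 0.0191 without T41S). The difference between high and medium clones was -0.68 ± 0.44 (adjusted p = 0.401).

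*Sox11* was at 103, 131 and 230.5 CPM in the low clones S45C, T41N and T41S, at 42.1, 41.3 and 61.2 CPM in the medium clones, and at 18.6 to 44.8 CPM (median 35.2 CPM) in the high clones. *Sox4* was at 127, 186 and 233 CPM in the same low clones, at 62.1, 61.5 and 58.6 CPM in the medium clones and at 36.8 to 62.5 CPM (median 53.9 CPM) in the high clones. For both genes the low clones stood above all 12 others, with T41S at the top, and the medium and high clones overlapped. High clones were 4.99-fold below low clones for *Sox11* (log2 difference -2.32 ± 0.22, SE; edgeR adjusted p = 6.0e-08) and 3.53-fold for *Sox4* (-1.82 ± 0.16, adjusted p = 2.1e-08). Medium clones were lower than low clones by -1.80 ± 0.29 for *Sox11* (adjusted p = 4.4e-04) and -1.64 ± 0.21 for *Sox4* (adjusted p = 9.0e-05). High and medium clones were not told apart for either gene (adjusted p = 0.272 and 0.63). The antisense *Gm26735* was at 31.7 to 61.0 CPM in low, 6.66 to 15.1 CPM in medium and 6.40 to 19.98 CPM in high clones, so it moved with *Sox4*, and its part in the *Sox4* counts was not tested.

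For *Tubb3* and *Map2* the difference between high and medium clones passed the test and that between medium and low clones did not. *Tubb3* was at 116, 68.6 and 83.6 CPM in S45C, T41N and T41S, and at 61.5, 83.5 and 112 CPM in S45F C1, S45F D9 and S45P. In high clones it ran from 15.6 to 77.6 CPM with a median of 30.6 CPM. Low and medium clones thus overlapped, 1 medium clone (S45F C1) being below every low clone, and both T41I clones (55.1 and 77.6 CPM) were the highest of the high category. High clones were lower than low clones by -1.38 ± 0.33 (2.60-fold, edgeR adjusted p = 0.00288; -0.78 and 0.136 with the codon as a term) and than medium clones by -1.25 ± 0.32 (2.38-fold, adjusted p = 0.0298). The second of these did not pass in DESeq2 (adjusted p = 0.0565), nor without S37C (0.0534), S45F C1 (0.0511), S45F D9 (0.119) or S45P (0.152). *Map2* was at 18.1, 26.2 and 22.0 CPM in the low clones, 10.0, 22.0 and 10.7 CPM in the medium clones, and 0.99 to 9.21 CPM (median 2.996 CPM) in the high clones. All 9 high clones were below every low and medium clone, by -2.50 ± 0.43 against low clones (5.67-fold, adjusted p = 1.3e-04) and -1.85 ± 0.45 against medium clones (3.60-fold, adjusted p = 0.0227). The comparison with medium clones did not pass without S45F D9 (adjusted p = 0.228) or S45P (0.0507), nor with counts thinned to the smallest library (-1.21, adjusted p = 0.298).

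Of all 10452 genes, 2.37% were lower and 2.13% higher in high than in medium clones. *Tubb3* and *Map2* were the 2 of 7 tested that were lower, and 0 were higher. Between medium and low clones, 7.29% of genes were lower and 3.66% higher in medium clones, and *Nes*, *Sox11* and *Sox4* were the 3 of 7 that were lower. All 3 medium clones carry a mutation of codon 45, as does S45C in the low category, whereas no high clone does. With the codon as a term in the model none of these 5 calls passed (adjusted p = 0.433 for *Map2* and 0.899 for *Tubb3* against medium clones; 0.314 for *Nes*, 0.247 for *Sox11* and 0.115 for *Sox4* between medium and low clones). Codon and category overlap in this design and cannot be told apart for the medium clones.

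*Pax6* and *Ncam1* turned on the S45C clone. *Pax6* was at 22.6 CPM in S45C, 8.07 CPM in T41N and 3.39 CPM in T41S. The medium clones S45F C1, S45F D9 and S45P had 15.1, 7.34 and 5.32 CPM, and the high clones 0 to 7.58 CPM with a median of 2.47 CPM, from 36 counts in all. High clones were lower than low clones (-1.82 ± 0.61, edgeR adjusted p = 0.0288). Without S45C the difference was -0.77 (adjusted p = 0.478), without T41S -2.49 (0.0102), and with the codon as a term -0.43 (0.748). Against medium clones the difference was -1.80 ± 0.56 (adjusted p = 0.0657), which passed without T41I B9 (0.0294), S45C (0.0422) or T41S (0.0418) and without the filter on low counts (0.0112). *Ncam1* was at 6.03 CPM in S45C (4 counts) and at 34.3 and 35.0 CPM in T41N and T41S. It was at 18.2 to 25.7 CPM in medium and 11.2 to 25.1 CPM in high clones (median 17.6 CPM). No difference between categories was called over all clones (high against low -0.62 ± 0.32, adjusted p = 0.153). Without S45C, high clones were lower than the remaining 2 low clones (-1.02, adjusted p = 0.00619), as they were with the codon as a term (-1.06, 0.0156). *Sox1* had 0 to 11.2 CPM over the clones, with 5 counts in all low, 8 in all medium and 43 in all high clones, and its highest level in T41A clone E6 (15 counts).

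**Figure D2:**
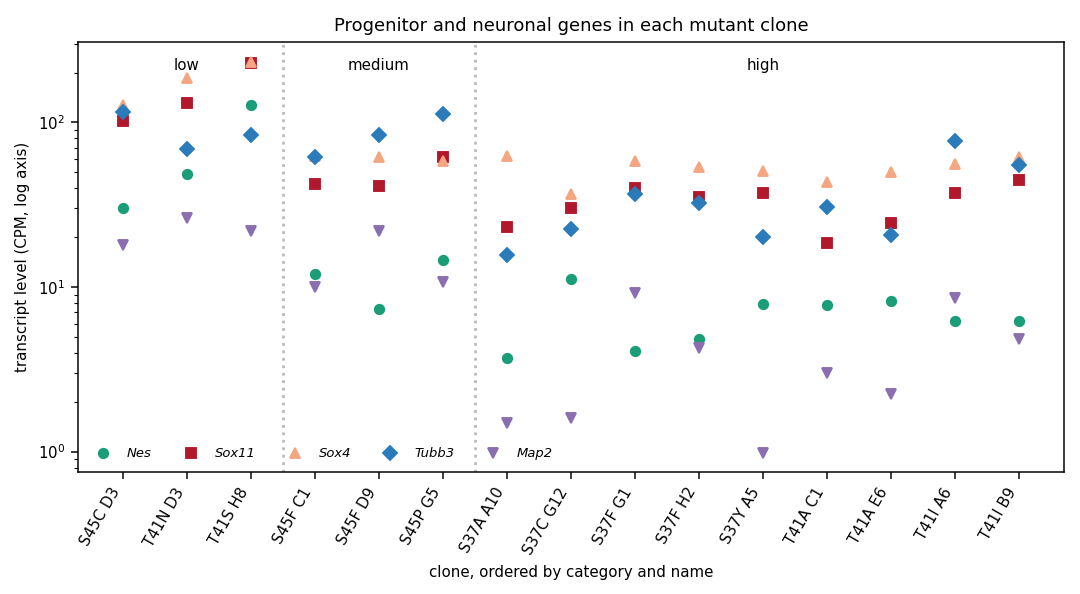
Levels of *Nes*, *Sox11*, *Sox4*, *Tubb3* and *Map2* (CPM, log axis) in each of the 15 clones, ordered by category and mutation; each symbol is 1 library. *Nes*, *Sox11* and *Sox4* are highest in the 3 low clones and peak in T41S, whereas *Tubb3* overlaps between the medium and the low clones.

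Clones with the same mutation differed less than the clones as a whole. Over the 4 mutations with 2 clones, the SD of log2 (CPM + 1) within a mutation was 0.092 for *Sox4*, 0.175 for *Sox11*, 0.234 for *Nes* and 0.304 for *Tubb3*. Over all 15 clones it was 0.748, 0.965, 1.32 and 0.939. For *Map2* it was 0.574 within and 1.28 over all clones, and for *Ncam1* 0.277 and 0.607. None of the 3 low mutations was read in a second clone, so their spread includes that between clones. The SD within a mutation thus holds no low clone, whereas the SD over all 15 clones includes the gap between categories. Whether clones of 1 mutation are more alike than clones of different mutations of a category was not tested.

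Likeness of the levels across clones is given as a description over 15 libraries that share their category structure. Pearson's r of log2 (CPM + 1) was 0.926 between *Sox11* and *Sox4*, 0.896 between *Nes* and *Sox11* and 0.861 between *Nes* and *Sox4*, and 0.887 between *Tubb3* and *Map2*. It was also high between genes of these sets, at 0.767 for *Map2* and *Sox11*, 0.730 for *Map2* and *Sox4* and 0.689 for *Tubb3* and *Sox11*, and was 0.735 for *Pax6* and *Tubb3*. In the 10 unedited libraries the 6 pairs of *Sox1*, *Pax6*, *Tubb3* and *Ncam1* had r between 0.596 (*Sox1* and *Tubb3*) and 0.836 (*Tubb3* and *Ncam1*). These libraries share the dose series, and each of these genes had a lower summed level with inhibitor than without. Some other pairs were negative there, down to -0.825 for *Nes* and *Ncam1*, and *Sox11* and *Sox4* had an r of 0.329. Among 7002 genes that averaged 20 CPM or more over the clones, those most like *Sox11* were *Lgals1* (r = 0.980), *Cldn6* (0.970) and *S100a6* (0.966). Those most like *Sox4* were *Atp6v0e*, *Sptbn1* and *Msn* (0.960, 0.960 and 0.959), and those most like *Tubb3* were *Maco1* (0.954), *2010204K13Rik* (0.943) and *Crmp1* (0.941), the last encoding a collapsin response mediator protein of growing axons.

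Against untreated unedited cells, *Nes*, *Sox11* and *Sox4* were higher in low clones and lower in high clones. Both comparisons share the 2 untreated libraries, and 11018 genes were tested. In low clones 16.4% of genes were higher and 14.5% lower, and 4 of the 8 genes were higher and 0 lower. *Nes* rose 4.01-fold (log2 2.00 ± 0.43, SE; edgeR adjusted p = 0.00133), *Sox11* 2.57-fold (1.36 ± 0.31, 0.00191), *Tubb3* 2.53-fold (1.34 ± 0.46, 0.0311) and *Sox4* 1.86-fold (0.90 ± 0.22, 0.00389). For these 4 genes all 3 low clones were above both untreated libraries. *Sox11* alone kept its call when any one library was left out, at 0.87 without T41S. *Nes* (1.03, adjusted p = 0.0615) and *Sox4* (0.62, 0.0521) were not called without T41S, and *Sox4* not without replicate 2 at 0 µM (0.68, 0.0834). *Tubb3* was not called without either untreated library (0.145 and 0.149), S45C (0.0858) or T41S (0.0561), nor in DESeq2 (0.0723) or with thinned counts (0.0524). *Map2* (0.75 ± 0.53, adjusted p = 0.294), *Ncam1* (-0.49 ± 0.38, 0.348), *Pax6* (-1.05 ± 0.63, 0.218) and *Sox1* (-1.42 ± 1.04, 0.314) did not pass. *Pax6* was called as lower without S45C (-2.09, adjusted p = 0.0277).

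In high clones 16.7% of genes were lower and 15.3% higher than in untreated cells, and 6 of the 8 genes were lower and 0 higher. *Pax6* was 7.19-fold lower (log2 -2.85 ± 0.53, SE; edgeR adjusted p = 3.2e-04), *Map2* 3.35-fold (-1.74 ± 0.49, 0.00858), *Nes* 2.71-fold (-1.44 ± 0.42, 0.0119), *Ncam1* 2.14-fold (-1.10 ± 0.31, 0.0093), *Sox11* 1.92-fold (-0.94 ± 0.27, 0.0102) and *Sox4* 1.87-fold (-0.90 ± 0.19, 9.2e-04). All 9 high clones were below both untreated libraries for each of these 6 genes, and how common this was among all genes was not counted. *Pax6* kept its call with any one library left out. Without replicate 1 at 0 µM, which leaves 1 untreated library assumed to vary like the clones, the other 5 did not pass (adjusted p = 0.279 for *Map2*, 0.142 for *Nes*, 0.187 for *Ncam1*, 0.183 for *Sox11* and 0.104 for *Sox4*), and *Nes* did not without replicate 2 either (0.0542). With thinned counts *Map2* (0.136), *Nes* (0.212) and *Sox11* (0.124) were not called. *Tubb3* did not pass (-0.02 ± 0.41, adjusted p = 0.971), with 2 of 9 high clones above and 5 below both untreated libraries. *Sox1* did not pass (-0.51 ± 0.73, adjusted p = 0.631).

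**Figure D3:**
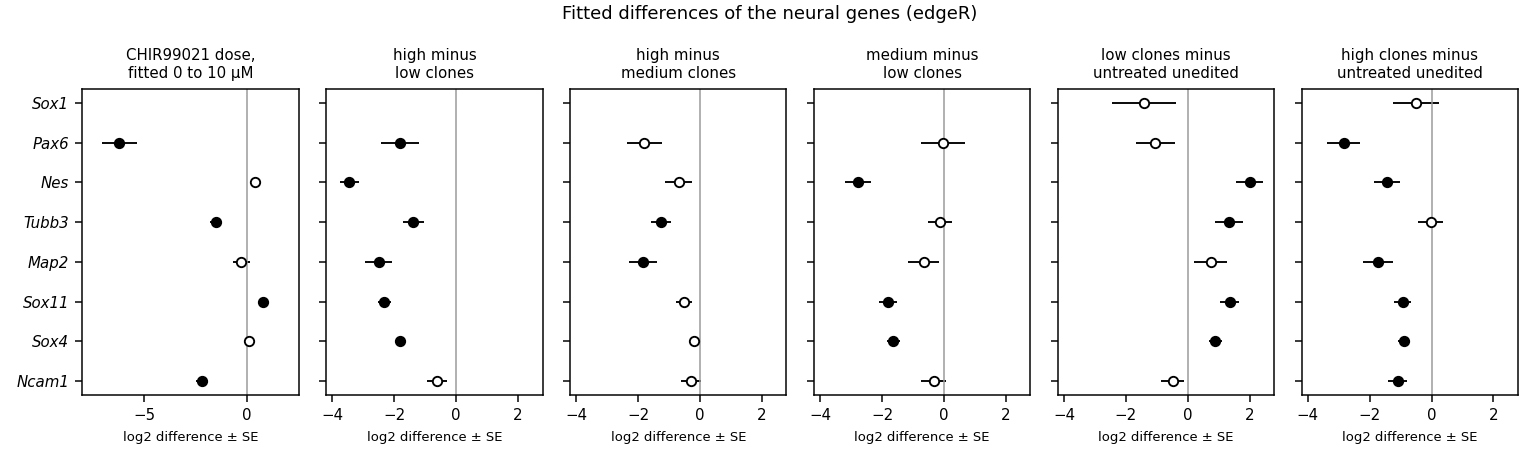
Fitted log2 differences (horizontal axis, ± SE) of the genes in 6 comparisons with edgeR; filled symbols have an adjusted p under 0.05, and a missing symbol means that the gene did not enter that fit. The dose panel has a wider axis. *Sox11* is the gene with a called rise over dose (0.79) and a called lower level in high clones (-0.94 against untreated cells).

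The inhibitor and the high category were alike in direction for some of these genes and not for others. *Pax6* and *Ncam1* were lower both with dose and in high clones against untreated cells. *Sox11* rose with dose and was lower in high clones. *Nes*, *Sox4* and *Map2* were lower in high clones and had no called trend with dose, and *Tubb3* fell with dose with no called difference between high clones and untreated cells. These comparisons share the untreated libraries, and the difference between dose and mutation was not tested.

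Relatives of these genes were read from lists that were chosen with earlier results of these data known. Of the other SoxB1 and SoxC genes, *Sox3* was near its counting limit (3.26 and 9.57 CPM in untreated cells, 15 counts) and did not enter the tests. *Sox2*, a SoxB1 factor of both pluripotent cells and neural progenitors, fell slightly with dose (-0.49 ± 0.12 over 10 µM, edgeR adjusted p = 0.00429), from 632 and 640.3 CPM to 421 and 506 CPM. It was not called between high and low clones, where 0 of the 2 tested relatives passed. *Sox12*, the remaining SoxC gene, was at 48.0 to 60.3 CPM in low, 83.5 to 87.9 CPM in medium and 32.0 to 79.1 CPM in high clones, and was called as lower in high than in medium clones (-0.85 ± 0.19, adjusted p = 0.0171), a call lost without any one of the 3 medium clones. It thus did not follow the order of *Sox4* and *Sox11*.

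Of 30 other neural progenitor genes, 11 were tested over dose, of which 5 fell and 2 rose, with a median change of -0.20 over 10 µM against 0.00 for all genes. *Otx2*, a homeobox factor of the epiblast and anterior neuroectoderm, went from 17.9 and 19.1 CPM to 0 and 3.01 CPM at 10 µM (-6.27 ± 1.01, edgeR adjusted p = 5.2e-05), but was not called in DESeq2. It had 0 counts in both libraries at 7.5 µM, and its fitted change, like that of *Pax6*, is no measure of size. The zinc finger gene *Zic5* (-2.18, adjusted p = 1.0e-06), the Notch ligand gene *Dll1* (-1.75, 0.0346) and *Notch1* (-0.95, 0.00724) also fell. *Nkx6-1*, a homeobox gene of ventral neural progenitors and of endoderm, rose from 0 and 1.63 CPM to 9.79 and 9.80 CPM (4.24, 0.00169), a call lost without replicate 2 at 10 µM. Here 1.63 CPM is 3 counts in replicate 1 at 0 µM, and 9.80 CPM is 3 counts in replicate 1 at 10 µM. *Prom1*, which encodes the surface protein prominin, rose by 0.87 (0.0229), a call lost without replicate 1 at 0 µM or replicate 2 at 10 µM, and that of *Notch1* was lost without the same libraries. *Dll1* lost its call without any one of several libraries.

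Between high and low clones, 11 of these 30 genes were tested, 4 being lower and 3 higher in high clones, with a median of 0.04 against 0.01 for all genes. The adhesion gene *Cdh2* (N-cadherin) was at 15.1 to 28.3 CPM in low and 2.23 to 5.51 CPM in high clones (-2.61 ± 0.33, edgeR adjusted p = 3.3e-06). *Vim*, the intermediate filament partner of nestin, was at 267 to 782 CPM and 87.1 to 155 CPM (-2.28 ± 0.24, 2.9e-07), *Prom1* at 14.1 to 29.4 CPM and 2.40 to 7.90 CPM (-2.03 ± 0.32, 5.1e-05) and *Otx2* at 6.21 to 19.6 CPM and 0 to 6.14 CPM (-1.39 ± 0.49, 0.036). The *Otx2* call was lost without S45C, T41N, S37A or S37Y. *Hes1*, a Notch target that represses neurogenic genes, was higher in high clones (97.8 to 179 CPM against 51.3 to 76.8 CPM, 1.11 ± 0.19, 1.0e-04), as was *Msi1*, an RNA-binding protein of progenitors (0.93 ± 0.30, 0.0227), whose call was lost without S45C or T41N. *Zic2* had 0 counts in the 3 low clones and 82 counts in the 9 high clones (2.14 to 12.6 CPM). *Cdh2*, *Vim* and *Prom1* were also lower in medium than in low clones (-1.94, -1.72 and -1.74), and these calls were lost with the codon as a term, as were those of *Otx2* and *Msi1* between high and low clones.

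Of 26 other neuronal genes, 16 were tested over dose, with 5 falling, 2 rising and a median of -0.16 over 10 µM. *Neurod1*, a neurogenic factor, fell (-3.76 ± 0.62, edgeR adjusted p = 7.0e-05; lost without replicate 1 at 0 µM), as did *Elavl3*, a neuronal RNA-binding protein (-2.19 ± 0.28, 2.2e-06), and the neurofilament gene *Ina* (-1.75 ± 0.24, 4.6e-06). *Crmp1* (-1.40 ± 0.34, 0.00543; lost without replicate 2 at 0 µM) and *Tubb2b* (-0.61 ± 0.20, 0.0357; lost without any one of several libraries) were the others that fell. The adhesion gene *L1cam* rose from 1.09 and 3.19 CPM to 9.80 and 10.5 CPM (2.73 ± 0.64, 0.00346). Of these levels, 3.19 CPM is 3 counts in replicate 2 at 0 µM, and 9.80 CPM is 3 counts in replicate 1 at 10 µM. *Gap43*, a growth-cone protein, went from 8.51 and 8.70 CPM to 16.6 and 22.9 CPM (1.29 ± 0.36, 0.0148; lost without either untreated library or replicate 2 at 7.5 µM).

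Between high and low clones, 15 of these 26 were tested, with 8 lower, 2 higher and a median of -1.24. *Gap43* differed most in log2 terms, at 42.4 to 115 CPM in low and 0.99 to 10.9 CPM in high clones (-3.96 ± 0.39, edgeR adjusted p = 1.2e-07). *Neurod1* (-2.33 ± 0.46, 5.1e-04), the α-tubulin gene *Tuba1a* (-2.17 ± 0.20, 5.1e-08), *Crmp1* (-2.04 ± 0.34, 9.9e-05) and the neurofilament gene *Nefl* (-1.97 ± 0.27, 1.1e-05) followed, and *Map1b*, *Ina* and *Dpysl3* (lost without T41S) were the others that were lower. *Mapt*, which encodes tau, was higher in high clones (9.65 to 38.4 CPM against 3.02 to 8.07 CPM, 1.87 ± 0.45, 0.00298), as was *Stmn3* (1.06 ± 0.32, 0.0146; lost without T41N or T41S). The calls of *Neurod1* and *Mapt* were lost with the codon as a term. Against medium clones, 4 were lower in high clones and 0 higher, *Crmp1* (-2.04), *Neurod1* (-1.97), *Ina* (-1.63) and *Tuba1a* (-0.79). All 4 calls were lost with the codon as a term, and those of *Neurod1* and *Tuba1a* without any one of the 3 medium clones. *Crmp1* and *Ina*, like *Tubb3*, overlapped between medium and low clones, at 50.8 to 74.3 CPM and 43.5 to 98.1 CPM for *Crmp1* and 148 to 236 CPM and 111 to 237 CPM for *Ina*.

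Against untreated cells, 12 of the progenitor list were tested, with 2 higher and 4 lower in low clones and 1 higher and 6 lower in high clones. *Msi1* was at 106 and 108 CPM in untreated cells and lower in all clones, at 14.1 to 26.0 CPM in low (-2.40 ± 0.33, edgeR adjusted p = 1.8e-05) and 22.5 to 56.0 CPM in high clones (-1.47 ± 0.23, 7.2e-05). *Hes1*, although higher in high than in low clones, was lower than in untreated cells in both (-1.67 ± 0.22, 1.1e-05 in low and -0.55 ± 0.17, 0.0167 in high clones). The others that were lower in low clones were *Dll1* (-2.54, 0.0195) and *Zic2* (0.00666), which had 0 counts there. In high clones they were *Dll1* (-3.65, 1.6e-04), *Otx2* (-2.16, 7.8e-04), *Prom1* (-2.07, 8.6e-05) and *Notch1* (-1.275, 4.3e-04). How far these calls depend on single libraries is not given here. *Cdh2* and *Vim* were the 2 that were higher in low clones (2.22 ± 0.49 and 1.95 ± 0.37; *Cdh2* lost without replicate 1 at 0 µM). Of the neuronal list 15 were tested, with 3 higher and 1 lower in low clones and 1 higher and 5 lower in high clones. *Gap43* (3.13 ± 0.58, 3.8e-04), *Nefl* (2.13 ± 0.42, 5.5e-04) and *Tuba1a* (1.34 ± 0.30, 0.00165) were higher in low clones. *Elavl3* was lower in both (-2.35 ± 0.46 and -2.80 ± 0.33, 5.7e-04 and 3.1e-06), from 56.4 and 72.8 CPM in untreated cells to 9.60 to 19.6 CPM in low and 2.47 to 17.1 CPM in high clones, and *Neurod1* was lower in high clones (-2.82 ± 0.43, 4.0e-05).

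**Figure D4:**
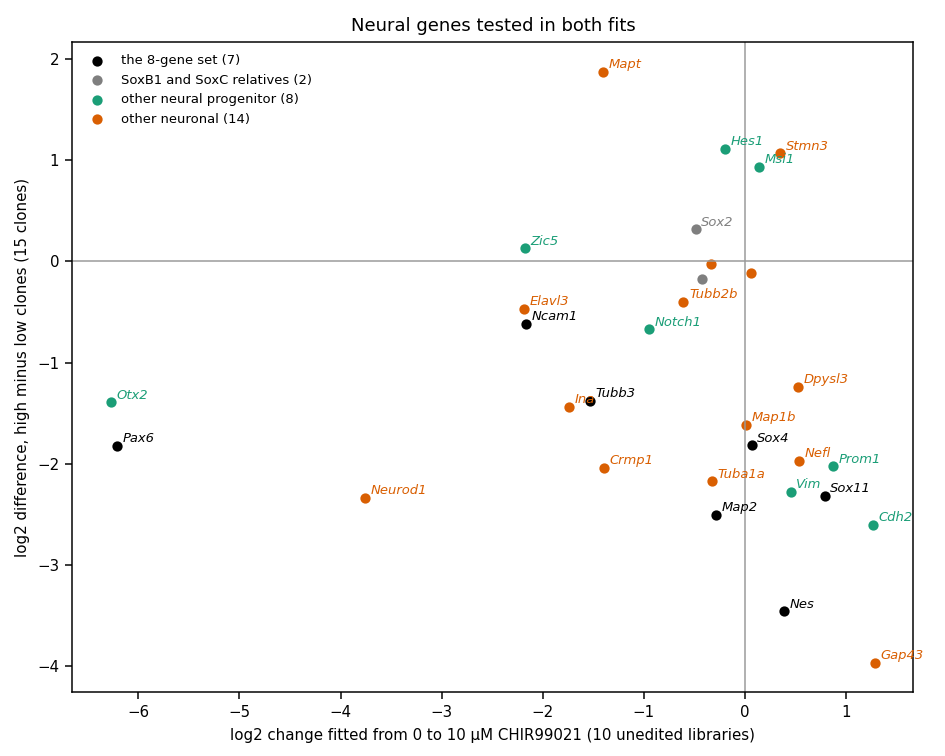
Log2 change fitted from 0 to 10 µM CHIR99021 (horizontal axis, unedited cells) and log2 difference between high and low clones (vertical axis) for genes that entered both fits; colours mark the 8-gene set and the related lists, and genes called in either fit are named. *Pax6*, *Otx2* and *Neurod1* are lower on both axes, whereas *Gap43*, *Cdh2* and *Sox11* are to the right of 0 with dose and lower in high than in low clones. The dose trend of *Cdh2* was not called (1.26 ± 0.57, edgeR adjusted p = 0.155). Against untreated cells, *Gap43* (-0.82, 0.321) and *Cdh2* (-0.37, 0.595) were not called in high clones.

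Of 9 tubulin isotypes 8 were tested between high and low clones, and *Tuba1a* and *Tubb6* (-1.98 ± 0.21, edgeR adjusted p = 3.0e-07) were lower, with a median of -0.23. *Tubb5*, the β-tubulin of most cells, was at 1616 to 2161 CPM in high and 1970 to 2379 CPM in low clones and was not called. Over dose *Tubb4b* (-0.78) and *Tubb2b* fell and *Tubb6* rose (0.73). Of 7 repressors of neural genes, the 3 Id genes, which encode inhibitors of neurogenic basic helix-loop-helix factors, were lower in high than in low clones and *Hes1* was higher. *Id2* was at 153 to 199 CPM in low, 19.3 to 50.6 CPM in medium and 19.8 to 33.1 CPM in high clones (-2.78 ± 0.17 for high against low, adjusted p = 1.3e-09), and *Id3* (-1.47) and *Id1* (-1.01) differed less. *Id3* and *Id1* rose with dose (1.64 and 0.90, the second lost without any one of several libraries). Against untreated cells, both were called as higher in low clones (2.84 for *Id3* and 2.28 for *Id1*) and in high clones (1.395 and 1.28). *Id2* was called as higher in low clones (1.21) and lower in high clones (-1.56) than in untreated cells. *Rest*, the repressor of neuronal genes outside neurons, fell with dose (-0.54 ± 0.13, 0.00486; lost without replicate 1 at 0 µM) and was not called between categories.

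Some markers of other cell types differed between categories. Of the 7 pluripotency genes, 5 were higher in high than in low clones, led by *Tfcp2l1* (2.20 ± 0.18, edgeR adjusted p = 7.4e-09) and *Klf4* (1.95 ± 0.18, 4.6e-08). The summed level of the fibroblast genes *Col1a1*, *Col1a2* and *Postn* was 37.7 to 146 CPM in low, 0 to 15.97 CPM in medium and 2.76 to 9.38 CPM in high clones, and *Col1a1* was lower in high clones (-4.21 ± 0.42, 1.1e-07). Summed mesendoderm genes (*T*, *Mixl1*, *Eomes*, *Gsc*, *Foxa2* and *Sox17*) went from 17.4 and 20.2 CPM without inhibitor to 133 and 160.0 CPM at 10 µM, and were 22.2 to 78.5 CPM in low, 16.3 to 29.3 CPM in medium and 25.6 to 125 CPM in high clones. Glial genes summed to 6.05 to 10.6 CPM in low and 12.4 to 44.7 CPM in high clones, with *Gfap* at 0 in untreated cells, and primitive endoderm genes to 2.02 to 15.3 CPM and 5.43 to 155.5 CPM. Between high and low clones 0 of the 3 mesendoderm genes tested, 1 of the 3 primitive endoderm genes and 0 of 1 neural crest gene (*Foxd3*) were called, and the mesendoderm and primitive endoderm sums overlapped. The 1 glial gene tested (*Aldh1l1*) was higher in high clones (1.94). Neural crest genes summed to 3.29 to 13.1 CPM in unedited cells and 24.6 to 79.7 CPM in clones. Against untreated cells *Foxd3* was called as higher in low and in high clones (1.99 and 2.90). The part of all these markers in the levels of the neural genes was not tested.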

How the data were processed

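Bulk mcSCRB-seq was available for 25 libraries. The authors trimmed reads, extracted and deduplicated UMIs, removed ribosomal reads, aligned to mm10 with RNA STAR and counted genes with featureCounts 2.0.1, and the deposited values are raw UMI counts per gene, with no normalization. Annotation release and strandedness are not given in the sources used here. Symbols came from GENCODE M21 (48058 of 48440 identifiers matched, 40606 with the same version). CPM were computed from total counts. The smallest library, 306157 counts, limits precision to 9.80 CPM for a count of 0, and the largest, 2083398, to 1.44 CPM.

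Groups came from the sample labels, and the low, medium and high categories from the study. Tests used edgeR 4.0.16 in R 4.3.3 with its quasi-likelihood F-test on TMM-scaled counts (filterByExpr, minimum count 10) and Benjamini-Hochberg adjustment over all genes tested at a false discovery rate of 0.05. SE were derived from the fitted difference and its test. Alternatives were RLE size factors, DESeq2 1.42.0, no filter, thinned counts, dose as ranks, 7.5 and 10 µM against 0 µM, a replicate block, a term for mitochondrial share, the codon as a term, counts summed per mutation, TMM-scaled CPM and leaving out each library. The fit of 2.5 to 10 µM was added after the data were seen. The fits were tested on simulated data.

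The members and the lists were chosen with earlier results of these data known. Named besides the 8 genes are called list genes, at most the 5 largest differences per comparison and direction, the most abundant list members, the genes called in lists of repressors, tubulins and marker genes, and the 3 genes of most like pattern for members averaging 20 CPM or more. Further called list genes were named after their values were seen. One list gene is not reported here and is left out of the plot of dose against clones, but is included in the counts of its list.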

Additional observations from a re-analysis of the deposited data

Results flagged for a closer look

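*Sox1* in T41A clone E6 was at 11.2 CPM, the highest of the 9 high clones, and its gap to the next clone was large for the range of the group (Dixon's test at the 95% level). It rests on 15 counts, and the other T41A clone, C1, was second with 4.79 CPM (8 counts). The test was applied to the highest and the lowest high clone for each of the 8 genes, and chance alone marks about 1 in 20 groups.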

How the results depend on the processing

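The number of genes called over all genes tested changed with depth, with the untreated libraries, with single clones and with the codon. With counts thinned to the smallest library the calls fell from 1341 to 286 for dose, from 3110 to 1886 for high against low clones, from 471 to 244 for high against medium, from 1145 to 546 for medium against low, from 3401 to 2120 for low clones against untreated cells and from 3522 to 1941 for high clones against them. Thinning tests fewer genes with fewer counts. Without both untreated libraries the dose calls were 127. With the codon as a term, in which S45C alone joins codon 45 to the other categories, high against medium gave 0 calls in edgeR (1133 genes at an unadjusted p under 0.05; DESeq2 without the term gave 556) and medium against low gave 9. High against medium gave 240 calls with counts summed per mutation and 739 without the filter on low counts, and the cause was not tested. Leaving out each library gave 547 (without replicate 1 at 0 µM) to 1412 dose calls, 1653 (without T41S) to 3264 for high against low, 106 (without S45F D9) to 811 (without T41I A6) for high against medium, 276 (without T41S) to 1433 for medium against low, 1672 to 3479 for low clones against untreated cells and 1268 to 3748 for high clones, the lowest of both without replicate 1 at 0 µM. Without replicate 2 at 0 µM the last 2 counts were 2218 and 1846.

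Of the settings of the 8 genes' differences, 828 kept direction and side of the threshold, 39 lost the call, 7 gained it and 25 changed sign. The sign changed for values that were not called: *Sox4* with dose (-0.0076 for 7.5 and 10 µM against 0 µM, -0.0071 per µM with thinned counts, and -0.0036 to 0.028 per µM with a library left out), *Pax6* between high and medium clones (0.74 with the codon as a term) and between medium and low clones (0.0099 without the filter, and -0.68 to 1.03 with a library left out), and *Ncam1* between medium and low clones (1.83 with the codon, and -0.71 to 0.20 with a library left out). With a library left out, *Tubb3* ranged from -0.31 to 0.12 between medium and low clones and from -0.26 to 0.090 for high clones against untreated cells, and *Sox1* from -1.37 to 0.54 for the latter. Among the other neural genes, *Hes1* (-0.012) and *Neurod1* (0.16) changed sign between high and medium clones with the codon as a term. TMM-scaled CPM moved 1 group mean by more than its SD, *Map2* at 10 µM, to 10.0 CPM from 9.79 CPM. The replicate numbers of the doses were not taken as pairs, since correlations of deviations from the group means between same-numbered libraries were -0.124 to 0.111 over 10 pairs of doses, 2 of them over 0.1. With the replicate block 1186 genes were called for dose, and no call among the 8 genes changed. The numbers of the clones count the clones of a mutation and were not used to pair libraries. Depth limits *Sox1* and *Pax6* most, with 73 and 164 counts over all 25 libraries.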
